A study of Mus musculus with 15 samples.

Results

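The tumour necrosis factor (TNF) ligand and receptor superfamily was measured by RNA-seq in mouse colon in a model of colitis-associated cancer. Members were all rows of the count table named Tnf, Lta, Ltb or Ltbr or carrying a numbered Tnfsf or Tnfrsf symbol. This gave 35 of the 56859 genes in the table, of which 14 encode ligands and 21 encode receptors. The rule reads gene names only, but it and the marker and pathway lists below were chosen with earlier results of these data known. Relatives that go by other symbols, such as Fas, Cd40 and Cd27, fall outside the rule and are described as a separate list below.

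The mice were male C57BL/6J aged 6 to 10 weeks, and 5 groups of 3 colon libraries were made. The protocol gives 10 mg/kg azoxymethane (AOM), a colon carcinogen, on day 0, with dextran sulfate sodium (DSS), an irritant of the gut lining, at 2.5% in the water on days 7 to 11, 28 to 32 and 49 to 53. Saline D27, saline D48 and saline D100 are groups given saline placebo on the DSS days and described by day 27, 48 or 100. The APX3330 group was given 25 mg/kg of APX3330, an inhibitor of the redox activity of APE1/Ref-1 (gene Apex1), by daily injection on those same days. The labels give that group no day, so treatment and day cannot be told apart in any comparison with it. The titles of the D48 and D100 groups call them cycles 1 and 2. Control libraries are labelled as wild type with no treatment named, although the protocol states that all mice received AOM, so what Control shared with the other groups is not settled. The labels do not state that the 3 libraries of a group are separate animals, and the p-values measure the spread between libraries only.

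Most TNF family ligands are trimers made on the cell surface, and many can be shed. They bring together receptors that signal either through death domains, towards caspases and cell death, or through TRAF adaptors, towards the transcription factor NF-kB. In the gut the family has opposed roles: TNF drives inflammation and can kill epithelial cells, whereas lymphotoxins build lymphoid follicles and other members regulate T cells, B cells and the follicle-associated epithelium.

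Total counts ranged from 13548661 to 17919613 per library, and 18038 genes had enough counts to be tested. Levels are given as CPM, read counts scaled to the size of each library. Epithelial markers (Epcam, Cdh1, Krt8, Krt20 and Vil1) summed to between 6112 and 8535 CPM in all 15 libraries, so every library held epithelium. Whether that epithelium was of colon was not tested. Some libraries stood apart. Saline D48 replicates 2 and 3 held 5 exocrine pancreas genes at a sum of 26439 and 6450 CPM, against at most 7.09 in any other library. Control replicates 1 and 3 and saline D100 replicate 1 held squamous epithelial genes at 696, 344 and 546 CPM, where saline D48 replicate 2 held 64.7 CPM and the other 11 libraries at most 4.09. Those 2 Control libraries also held skeletal muscle genes at 1568 and 706 CPM. Results were therefore computed also without the pancreatic pair and without the squamous 3 (saline D48 replicate 2 is in the first set only), which leaves 1 library in saline D48 or in Control, and the lone library is then assumed to vary like the other groups.

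Several lists of immune cell markers moved with the groups too. The summed level of 6 T cell markers was 11.5 to 15.2 CPM in Control, 35.9 to 62 in saline D27, 45.4 to 109 in saline D48, 40.5 to 46.3 in saline D100 and 30.2 to 38.6 with APX3330. Neutrophil markers (5 genes) ran over 3.86 to 6.56, 10.1 to 25.2, 48.4 to 93, 13.8 to 23 and 5.94 to 7.6 CPM in the same order, and macrophage and dendritic cell markers (7 genes) over 264 to 341, 574 to 785, 832 to 1205, 568 to 741 and 382 to 543 CPM. The mean of each of these 3 sums was highest in saline D48, and no T cell or macrophage marker was at 0 in any library. Natural killer and innate lymphoid cell markers (5 genes, 2 of them tested) differed from these lists. They summed to 59.7 to 65.9 CPM in Control, 57.6 to 69.7 in saline D27 and 50.8 to 72.6 in saline D48. In saline D100 their sum was 29.5 to 36.0 CPM and with APX3330 38.5 to 42.2. Of the neutrophil markers Cxcr2, S100a8 and S100a9 were at 0 in APX3330 replicates 2 and 3, 2 of the 5 were at 0 in Control replicate 2 and 1 in Control replicate 3 and in saline D100 replicate 3. Stromal lists moved as well. Fibroblast markers (4 genes) summed to 2298 to 2741 CPM in Control, 1554 to 1933 in saline D27, 2489.6 to 2848 in saline D48, 1496 to 1601 in saline D100 and 1411 to 1652 with APX3330, where 3 of 4 were called lower than at saline D48. Endothelial markers (3 genes) summed to 104 to 125, 104 to 117, 143 to 183, 104 to 129 and 117 to 145 CPM in the same order. The part of these lists in the results below was not tested. In whole tissue, fewer cells of a type and less RNA per cell cannot be told apart.

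Across the family, transcripts were highest at saline D48 and lowest in Control or with APX3330. Of the 33 members with enough counts to be tested, 22 had their highest group mean in saline D48, where 23.4% of all tested genes did. Their lowest mean fell in Control for 19 members and in the APX3330 group for 12 (28.6% and 18.0% of all genes). A gene was called when its edgeR quasi-likelihood test, adjusted over all 18038 genes, gave p below 0.05. By an F test over the 5 groups 22 of the 33 members (66.7%) were called, against 37.3% of all genes. The filter on low counts can let a gene through on the group where it is high, so these counts describe the 33 members and not all 35.

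Against Control, 19 members rose and 1 fell at saline D48, which is 60.6% of those tested against 27.3% of all genes (14.3% higher and 13.0% lower). At saline D27 10 rose and 1 fell, 33.3% against 19.5% of all genes (10.2% higher and 9.36% lower). At saline D100 8 rose and 1 fell, 27.3% against 21.9% (11.4% higher and 10.5% lower). With APX3330 3 rose and 2 fell, and the share, 15.2%, was at the background of 15.3% (7.16% higher and 8.18% lower). The median log2 fold change of the 33 was 1.33 at saline D48, 0.75 at saline D27, 0.47 at saline D100 and 0.14 with APX3330, while that of all genes lay near 0 in each.

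Both sides of the family moved at saline D48. Of the 12 ligands tested 8 rose against Control, and of the 21 receptors 11 rose and 1 fell. The median log2 fold change was 2.09 over the ligands and 0.87 over the receptors. The 8 called ligands were Tnf, Lta, Ltb, Tnfsf8, Tnfsf9, Tnfsf11, Tnfsf13b and Tnfsf14. The DESeq2 test called 21 of the 33 in this comparison, and 5246 of all genes where edgeR called 4916.

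The APX3330 group was lower than saline D48 for 17 members and higher for 0, which is 51.5% of those tested against 19.7% of all genes (9.41% higher and 10.3% lower). These were 8 ligands and 9 receptors. Against saline D27 6 were lower and 0 higher, 18.2% against 9.08% (4.71% higher and 4.37% lower). Against saline D100 edgeR called 0 members and 0.504% of all genes (0.305% higher and 0.200% lower), with 6 members at an unadjusted p below 0.05 and 0 called by DESeq2. Over all genes DESeq2 called 440 there and edgeR 91. The comparison with saline D48 shares its libraries with that of saline D48 against Control, so the 2 counts are not independent.

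Between the saline groups few members passed. Saline D48 against saline D27 gave 0 calls among the members with edgeR (1.35% of all genes, 0.854% higher and 0.499% lower), 7 at an unadjusted p below 0.05 and 3 with DESeq2, which were Tnfrsf1b, Tnfrsf11b and Tnfrsf12a. Over all genes DESeq2 called 706 there and edgeR 244. From saline D48 to saline D100 Tnf, Lta, Tnfsf13b and Tnfrsf1a fell, 12.1% of the members against 13.6% of all genes (7.20% higher and 6.40% lower). DESeq2 called 10 members there, and 3100 of all genes where edgeR called 2453. From saline D27 to saline D100 Tnfrsf12a fell, 3.03% of the members against 3.08% (1.63% higher and 1.45% lower).

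These counts depended on single libraries, as did the calls over all genes. Without saline D27 replicate 2 those at saline D27 against Control went from 3522 to 1799. Without saline D48 replicate 3 those at saline D48 against Control went from 4916 to 3550, and those of APX3330 against saline D48 from 3557 to 2205. In a few fits they rose, as for APX3330 against saline D27 without APX3330 replicate 1 (1638 to 1890). Without saline D27 replicate 2 or Control replicate 1 the count at saline D27 against Control was 4 or 7, and without saline D48 replicate 3 that at saline D48 was 12. The count at saline D100 against Control was 4 without its replicate 3 and 5 without Control replicate 1, and that of APX3330 against Control was 3 without Control replicate 1, Control replicate 3 or APX3330 replicate 3. APX3330 against saline D48 gave 7 without saline D48 replicate 3 or APX3330 replicate 3 and 11 without APX3330 replicate 2. APX3330 against saline D27 gave 1 without saline D27 replicate 1 or 2 or APX3330 replicate 2 or 3, and 3 without APX3330 replicate 1. Saline D100 against saline D48 gave 1 without saline D100 replicate 3 and 2 without saline D48 replicate 1 or 3 or saline D100 replicate 2. Saline D100 against saline D27 gave 0 without saline D27 replicate 1 or 2 or saline D100 replicate 1 or 3, and 2 without saline D27 replicate 3. No called member changed direction in any of these fits.

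Without the pancreatic pair, 5 members rose at saline D48 against Control (Ltb, Tnfrsf1b, Tnfrsf8, Tnfrsf13b and Tnfrsf13c) and 4 were lower with APX3330 than in the remaining saline D48 library (Tnfrsf1a, Tnfrsf1b, Tnfrsf13c and Tnfrsf21). Without the squamous 3, 4 members were higher at saline D48 than in the remaining Control library (Tnf, Tnfsf11, Tnfrsf1b and Tnfrsf8). In that fit Tnfrsf8 was the 1 member called at saline D27 and with APX3330, and Tnfrsf8 and Tnfrsf25 were called at saline D100. The F test called 13 and 11 members in the 2 fits. No call changed direction. Both fits had fewer libraries, and calls over all genes fell in them too. Other member calls against Control that a fit tested were lost in it, also where a call is described below as kept with each library left out.

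**Figure D1:**
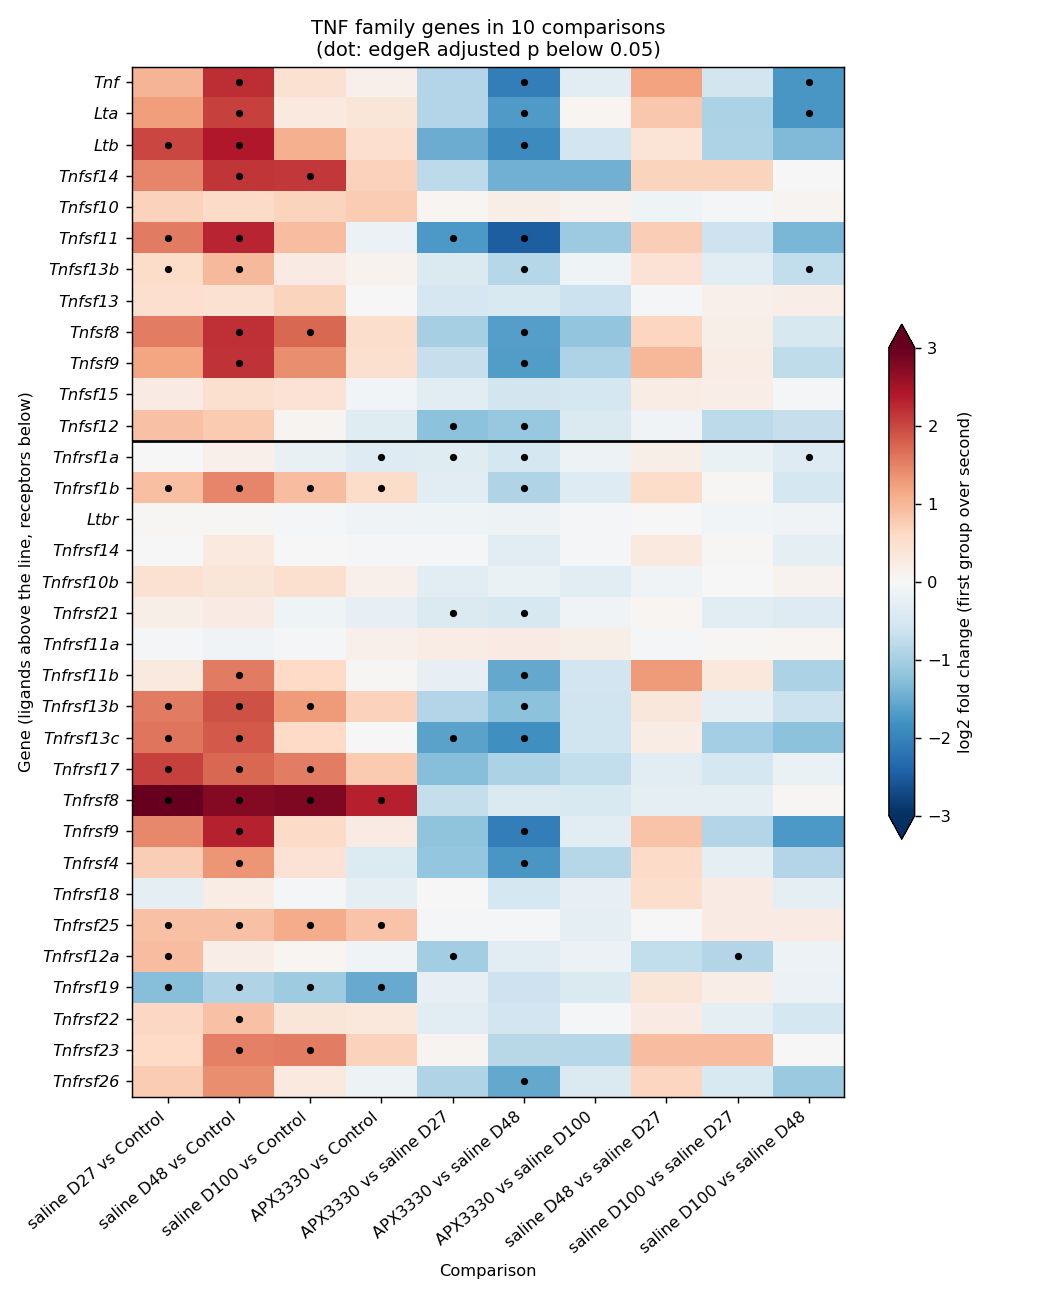
Log2 fold change (colour) of the 33 tested TNF family genes (rows, ligands above the line and receptors below) in 10 comparisons (columns), with a dot where the edgeR adjusted p was below 0.05. Saline D48 against Control holds 19 red dots and 1 blue dot, APX3330 against saline D48 holds 17 blue dots, and APX3330 against saline D100 holds 0 dots.

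The genes of the founding cytokines, Tnf and the lymphotoxins Lta and Ltb, lie side by side on chromosome 17 (GRCm38), with 1157 bases between Tnf and Lta and 3060 between Ltb and Tnf. Tnf and Lta are read from the minus strand and Ltb from the plus strand. Since all 3 rose at saline D48, their upstream windows are shown, as are those of Tnfrsf1b and Tnfrsf8, neighbouring receptor genes 20266 bases apart on the minus strand of chromosome 4 that were higher than Control in all 4 comparisons. Each is the stretch before the start of transcription in RefSeq (GRCm38.p6), 5′ to 3′ on the gene's strand, and for Ltb 68 bases next to the RefSeq start were left out because the gene annotation counts them as gene body. Capitals mark the letters GGGNNNNNCC, a loose form of the NF-kB motif, and TGANTCA, the AP-1 motif, searched on both strands. The windows are chr17:35202008-35202257 for Tnf, chr17:35205352-35205601 for Lta, chr17:35194257-35194438 for Ltb, chr4:145246871-145247120 for Tnfrsf1b and chr4:145315165-145315414 for Tnfrsf8.
Tnf: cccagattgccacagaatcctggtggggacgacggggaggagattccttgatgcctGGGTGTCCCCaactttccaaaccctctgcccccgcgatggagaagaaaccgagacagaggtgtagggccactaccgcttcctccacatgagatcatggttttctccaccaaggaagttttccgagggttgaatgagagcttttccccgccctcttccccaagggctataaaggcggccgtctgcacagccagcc
Lta: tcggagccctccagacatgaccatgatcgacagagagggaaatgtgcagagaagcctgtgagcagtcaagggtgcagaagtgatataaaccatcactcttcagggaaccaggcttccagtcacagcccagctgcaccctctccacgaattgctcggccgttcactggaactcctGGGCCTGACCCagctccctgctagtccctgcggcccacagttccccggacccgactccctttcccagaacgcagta
Ltb: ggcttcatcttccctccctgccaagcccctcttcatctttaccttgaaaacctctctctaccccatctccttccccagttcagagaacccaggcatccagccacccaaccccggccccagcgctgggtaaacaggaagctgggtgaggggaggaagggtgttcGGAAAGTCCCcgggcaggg
Tnfrsf1b: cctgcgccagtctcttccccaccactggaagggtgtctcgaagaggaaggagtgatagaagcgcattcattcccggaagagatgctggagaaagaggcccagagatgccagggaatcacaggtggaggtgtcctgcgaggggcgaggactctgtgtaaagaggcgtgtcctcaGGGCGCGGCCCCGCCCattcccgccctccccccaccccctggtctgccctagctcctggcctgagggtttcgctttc
Tnfrsf8: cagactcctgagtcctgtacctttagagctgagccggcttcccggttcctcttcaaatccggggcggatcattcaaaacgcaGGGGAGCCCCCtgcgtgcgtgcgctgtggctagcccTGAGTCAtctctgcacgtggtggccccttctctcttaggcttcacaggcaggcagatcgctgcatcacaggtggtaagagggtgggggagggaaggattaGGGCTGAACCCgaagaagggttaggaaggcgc

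All 5 windows held a match to GGGNNNNNCC. The match in Ltb, GGAAAGTCCC at 87 to 78 bases before the start, also fitted the tighter form GGGANTTTCC on the other strand, a form chosen after the windows were seen and contained in the loose one. Tnfrsf8 held GGGNNNNNCC at 168 to 158 and at 32 to 22 bases before its start and the AP-1 letters TGAGTCA at 132 to 126. RefSeq windows of 250 bases were matched for 28 of the 35 members, 32 windows in all. The loose motif was in 19 of these (59.4%) and in 45.8% of all 32851 windows, and TGANTCA in 5 (15.6%) and in 6.75%. These shares include bases that the gene annotation counts as gene body, among them the TGANTCA letters of Tnfrsf9, Tnfsf13 and Tnfsf13b. The tight form was in 1 of the 32 (3.12%), the Ltb window above, and in 0.356% of all windows. Since that window was seen before the form was chosen, the tight form's share tests nothing. A match describes letters only.

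Tnf, the founding inflammatory cytokine of the family, was highest at saline D48. It stood at 0.129, 2.12 and 2.46 CPM in Control, 3.18, 3.86 and 2.48 in saline D27, 8.2, 6.4 and 7.26 in saline D48, 2.9, 1.92 and 1.66 in saline D100 and 1.55, 2.0 and 1.61 with APX3330. The 3 saline D48 libraries lay above all 12 others, and Control replicate 1 lay lowest, with 2 reads. The log2 fold change from Control to saline D48 was 2.22 ± 0.53 (edgeR adjusted p = 0.00638). For all fold changes here ± is the SE from the joint fit of all 15 libraries, which shares the spread over the 5 groups. Tnf was lower with APX3330 than at saline D48 (-2.08 ± 0.53, edgeR adjusted p = 0.0133) and lower at saline D100 than at saline D48 (-1.75 ± 0.52, edgeR adjusted p = 0.0362). The first and second calls held with any 1 library left out, and the third was lost without saline D48 replicate 1, 2 or 3 or saline D100 replicate 1, 2 or 3 (edgeR adjusted p from 0.0534 to 0.125). Without the pancreatic pair the value against Control was 2.39 (edgeR adjusted p = 0.0526) and that of APX3330 against saline D48 -2.25 (edgeR adjusted p = 0.0875).

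Lta, which encodes lymphotoxin alpha, a soluble ligand of the TNF receptors and a partner of lymphotoxin beta, stood at 1.03, 0.584 and 0.732 CPM in Control, 2.9, 1.38 and 1.3 in saline D27, 3.04, 1.87 and 4.88 in saline D48, 0.424, 1.28 and 1.2 in saline D100 and 1.01, 1.07 and 0.938 with APX3330. The saline D48 libraries were all above those of Control, saline D100 and APX3330 but overlapped saline D27. Lta rose at saline D48 (2.05 ± 0.48, edgeR adjusted p = 0.00549), a call kept with each library left out. Lta was lower with APX3330 than at saline D48 (-1.69 ± 0.47, edgeR adjusted p = 0.0201), which was lost without saline D48 replicate 3 or APX3330 replicate 2 or 3 (edgeR adjusted p from 0.0599 to 0.114). It also fell from saline D48 to saline D100 (-1.74 ± 0.47, edgeR adjusted p = 0.0239), lost without saline D48 replicate 1 or 3 or saline D100 replicate 1 or 3 (edgeR adjusted p from 0.0502 to 0.116).

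Ltb encodes lymphotoxin beta, the membrane anchor of the heterotrimer that organises gut lymphoid follicles. It stood at 5.73, 4.6 and 3.66 CPM in Control, 19.9, 27 and 8.93 in saline D27, 15.7, 9.8 and 48.5 in saline D48, 11.2, 9.49 and 8.73 in saline D100 and 8.11, 6.67 and 4.96 with APX3330. Saline D48 replicate 3 alone reached 48.5 CPM, and the same library held the most B cell marker RNA (573 summed CPM over 7 genes, against 65.7 to 302 in the other 14). Ltb rose at saline D27 (1.99 ± 0.49, edgeR adjusted p = 0.0112) and at saline D48 (2.40 ± 0.50, edgeR adjusted p = 0.00239). The first call was lost without Control replicate 3 or saline D27 replicate 2 (edgeR adjusted p from 0.0527 to 0.0632) and the second was kept with each library left out. Ltb was lower with APX3330 than at saline D48 (-1.91 ± 0.48, edgeR adjusted p = 0.0128), a call lost without saline D48 replicate 3 or APX3330 replicate 3 (edgeR adjusted p from 0.0562 to 0.103). Without the pancreatic pair, which includes replicate 3, the value at saline D48 against Control was 1.75 (edgeR adjusted p = 0.0208).

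The 2 TNF receptors moved differently. Tnfrsf1b encodes TNFR2, found mainly on leukocytes and endothelium and signalling through TRAF adaptors, and it stood at 28, 51.1 and 42.2 CPM in Control, 68.2, 96.5 and 62.8 in saline D27, 119, 106 and 109 in saline D48, 82.8, 70.2 and 78.9 in saline D100 and 56.1, 60.8 and 61.6 with APX3330. Every library of the other 4 groups lay above the 3 Control libraries, and the saline D48 libraries lay above all others. Tnfrsf1b rose at saline D27 (0.91 ± 0.18, edgeR adjusted p = 0.00311), saline D48 (1.46 ± 0.18, edgeR adjusted p = 7.12e-05) and saline D100 (0.94 ± 0.18, edgeR adjusted p = 0.00179), and these 3 calls were kept with each library left out. It was also higher with APX3330 than in Control (0.56 ± 0.18, edgeR adjusted p = 0.0468), which was lost without Control replicate 1 or 3 or APX3330 replicate 1, 2 or 3 (edgeR adjusted p from 0.0665 to 0.177). With APX3330 it was lower than at saline D48 (-0.90 ± 0.18, edgeR adjusted p = 0.00292), and this was kept in every such fit. Without the pancreatic pair it was still called, with 1.57 (edgeR adjusted p = 0.00151) against Control. Without the squamous 3 the rises at saline D27, saline D100 and with APX3330 were 0.55 (edgeR adjusted p = 0.16), 0.53 (edgeR adjusted p = 0.182) and 0.22 (edgeR adjusted p = 0.656). Of the 3 endothelial markers 3 were called higher at saline D48 than in Control and 2 lower with APX3330 than at saline D48.

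Tnfrsf1a encodes TNFR1, the broadly made receptor with a death domain. It stood at 97.2, 99 and 101 CPM in Control, 96.1, 108 and 89 in saline D27, 117, 109 and 106 in saline D48, 94.2, 82.3 and 78.9 in saline D100 and 78, 77.3 and 73.2 with APX3330. The spread was narrow, and the APX3330 libraries lay below all 12 others. Tnfrsf1a was lower with APX3330 than in Control (-0.38 ± 0.09, edgeR adjusted p = 0.0102) and than at saline D48 (-0.54 ± 0.09, edgeR adjusted p = 0.00109), both kept with each library left out. It was also lower with APX3330 than at saline D27 (-0.36 ± 0.09, edgeR adjusted p = 0.0235), which was lost without saline D27 replicate 1 or 2 or APX3330 replicate 2 or 3 (edgeR adjusted p from 0.0678 to 0.104). The fall from saline D48 to saline D100 (-0.38 ± 0.09, edgeR adjusted p = 0.0119) was lost without saline D100 replicate 2 or 3 (edgeR adjusted p from 0.0519 to 0.0615). No saline group was called against Control with all libraries, and without saline D100 replicate 1 saline D100 was called lower (-0.30, edgeR adjusted p = 0.0405). Without the squamous 3 the difference between APX3330 and Control was -0.39 (edgeR adjusted p = 0.155).

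Ltbr, the lymphotoxin beta receptor of epithelial and stromal cells, was called in 0 of the 10 comparisons by edgeR and by DESeq2. Its group means ran from 111 ± 2.46 CPM in APX3330 to 123 ± 13.1 CPM in saline D48 (SD, n = 3), and at saline D48 against Control the log2 fold change was 0.04 ± 0.09, edgeR adjusted p = 0.742. Tnfsf14 encodes LIGHT, a T cell ligand of both Ltbr and the receptor HVEM. It stood at 0.579, 0.146 and 0.333 CPM in Control, 0.279, 1.58 and 1.18 in saline D27, 2.12, 1.0 and 1.68 in saline D48, 1.62, 0.833 and 2.33 in saline D100 and 0.676, 0.80 and 0.268 with APX3330. Control was below saline D48 and saline D100 in every library. Tnfsf14 rose at saline D48 (2.14 ± 0.67, edgeR adjusted p = 0.0261) and at saline D100 (2.13 ± 0.67, edgeR adjusted p = 0.0327). The first was lost without Control replicate 2 or 3 or saline D48 replicate 1 or 3 (edgeR adjusted p from 0.0652 to 0.0934), and the second without Control replicate 2 or 3 or saline D100 replicate 1 or 3 (edgeR adjusted p from 0.0643 to 0.128). Tnfrsf14, the gene of HVEM, was not called in any comparison, with group means from 23.3 ± 1.19 CPM in APX3330 to 29.3 ± 0.74 CPM in saline D48 (SD, n = 3).

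**Figure D2:**
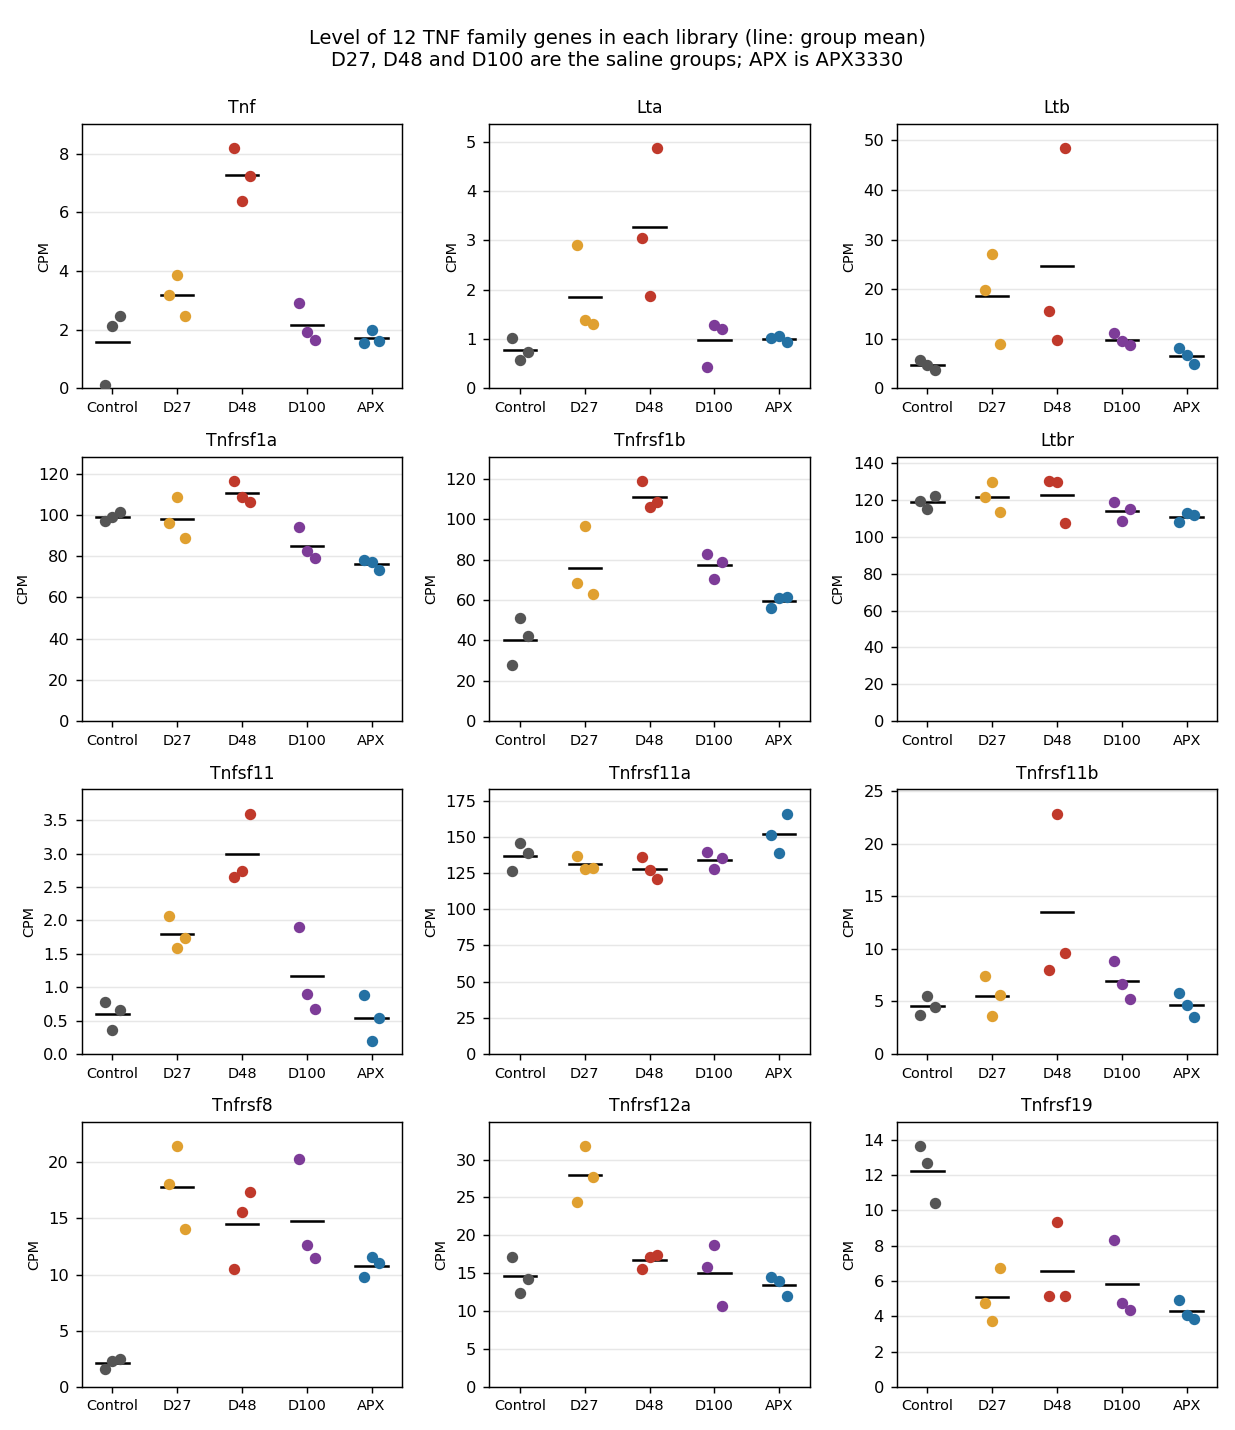
Level in CPM (y axes, each from 0) of 12 TNF family genes in each of the 15 libraries (points) by group (x axes), with lines at the group means. The Tnf points of saline D48, at 8.20, 6.40 and 7.26 CPM, lie above all others in that panel, the Tnfrsf1b points of Control lie below all others, and the Ltbr and Tnfrsf11a panels show groups that overlap.

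Of the genes of TRAIL, its receptor and death receptor 6, the filtered edgeR fit called the last only, and the calls of the first 2 depended on the fit. Tnfsf10 encodes TRAIL, and its group means ran from 18.1 ± 0.644 CPM in Control to 30.6 ± 13.9 CPM in APX3330 (SD, n = 3). All saline and APX3330 libraries lay above the Control libraries, but the filtered edgeR fit called no difference, and the log2 fold change with APX3330 was 0.75 ± 0.25, edgeR adjusted p = 0.0556. With no filter on low counts edgeR called Tnfsf10 higher than Control at saline D27, saline D48, saline D100 and with APX3330 (adjusted p = 0.00108, 0.00742, 0.00268 and 3.65e-04). Without APX3330 replicate 2 the filtered fit called it with APX3330 (0.98, edgeR adjusted p = 0.023), and without saline D100 replicate 2 at saline D100 (0.83, edgeR adjusted p = 0.0497). The DESeq2 test called Tnfsf10 against Control at saline D27, at saline D100 and with APX3330 (adjusted p = 0.0297, 0.0382 and 0.0199). Its receptor gene Tnfrsf10b, in the mouse the single full TRAIL receptor, ran from 11 ± 4.52 CPM in Control to 15.2 ± 0.858 CPM in saline D100 and was not called with all libraries in the fit. Control replicate 2, at 16.2 CPM, lay above the other Control libraries at 8.75 and 8.05. Without it edgeR called Tnfrsf10b higher than Control at saline D27 (0.85, edgeR adjusted p = 0.00535), saline D48 (0.75, edgeR adjusted p = 0.00716) and saline D100 (0.86, edgeR adjusted p = 0.00375). Tnfrsf21, the gene of death receptor 6, stood at 90.3, 106 and 102 CPM in Control, 118, 127 and 94 in saline D27, 131, 117 and 103 in saline D48, 85.8, 83.9 and 101 in saline D100 and 77.8, 89 and 85.3 with APX3330. The APX3330 libraries lay below those of saline D27 and saline D48. Tnfrsf21 was lower with APX3330 than at saline D48 (-0.48 ± 0.12, edgeR adjusted p = 0.0129) and at saline D27 (-0.43 ± 0.12, edgeR adjusted p = 0.0401). The first was lost without saline D48 replicate 1 (edgeR adjusted p = 0.0579), and the second without saline D27 replicate 1 or 2 or APX3330 replicate 1, 2 or 3 (edgeR adjusted p from 0.0834 to 0.168).

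The RANKL axis differed between its parts. Tnfsf11 encodes RANKL, the ligand known in gut for inducing M cells over lymphoid follicles. It stood at 0.772, 0.365 and 0.666 CPM in Control, 2.06, 1.58 and 1.74 in saline D27, 2.65, 2.73 and 3.6 in saline D48, 1.91, 0.897 and 0.677 in saline D100 and 0.878, 0.20 and 0.536 with APX3330. The saline D48 libraries lay above all 12 others and those of saline D27 above Control. Tnfsf11 rose at saline D48 (2.29 ± 0.49, edgeR adjusted p = 0.00282), kept with each library left out, and at saline D27 (1.56 ± 0.49, edgeR adjusted p = 0.0362), lost without Control replicate 1, 2 or 3 or saline D27 replicate 1, 2 or 3 (edgeR adjusted p from 0.061 to 0.117). With APX3330 it was lower than at saline D48 (-2.46 ± 0.49, edgeR adjusted p = 0.00321), also kept in every such fit. It was lower than at saline D27 as well (-1.73 ± 0.50, edgeR adjusted p = 0.0414), lost without saline D27 replicate 1, 2 or 3 or APX3330 replicate 2 or 3 (edgeR adjusted p from 0.0616 to 0.144). Without the pancreatic pair Tnfsf11 was 2.12 for saline D48 against Control and -2.28 for APX3330 against saline D48, and both calls were lost. The level with APX3330 did not differ from Control by the test (-0.17 ± 0.53, edgeR adjusted p = 0.868). Counts were low, so small differences could not be detected at this depth.

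Tnfrsf11b encodes osteoprotegerin, a secreted decoy that binds RANKL. It stood at 3.67, 5.55 and 4.46 CPM in Control, 7.42, 3.58 and 5.58 in saline D27, 7.94, 22.9 and 9.64 in saline D48, 8.83, 6.67 and 5.27 in saline D100 and 5.81, 4.67 and 3.55 with APX3330. Saline D48 replicate 2 was the highest library, and the 3 saline D48 libraries lay above Control and APX3330. Tnfrsf11b rose at saline D48 (1.56 ± 0.38, edgeR adjusted p = 0.0064), kept with each library left out. Tnfrsf11b was lower with APX3330 than at saline D48 (-1.52 ± 0.38, edgeR adjusted p = 0.0112), lost without saline D48 replicate 2 or APX3330 replicate 3 (edgeR adjusted p from 0.0512 to 0.065). Saline D48 replicate 2 is also the library richest in pancreatic transcripts, and without the pancreatic pair the value against Control was 0.80 (edgeR adjusted p = 0.259). Tnfrsf11a, the gene of the signalling receptor RANK, was not called by edgeR with all libraries, with group means from 128 ± 7.33 CPM in saline D48 to 152 ± 13.5 CPM in APX3330 (SD, n = 3). DESeq2 called it higher with APX3330 than at saline D48 (log2 fold change 0.24, adjusted p = 0.0403). So did edgeR without saline D48 replicate 1 (0.31, edgeR adjusted p = 0.0429) and without APX3330 replicate 2 (0.31, edgeR adjusted p = 0.0451).

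The B cell survival ligand BAFF and the 3 receptors of BAFF and APRIL rose in saline groups, where B cell and plasma cell markers were also higher. Tnfsf13b encodes BAFF, the main survival factor of mature B cells, made largely by myeloid and stromal cells. It stood at 9.52, 12.9 and 12.6 CPM in Control, 18.2, 14.3 and 18.4 in saline D27, 16.4, 25.9 and 26.2 in saline D48, 14.3, 14.2 and 12.7 in saline D100 and 13.9, 12 and 11.9 with APX3330. All saline D27 and saline D48 libraries lay above Control. Tnfsf13b rose at saline D48 (0.97 ± 0.18, edgeR adjusted p = 0.00137), kept with each library left out. It rose at saline D27 (0.54 ± 0.18, edgeR adjusted p = 0.0498), a call lost without Control replicate 1, 2 or 3 or saline D27 replicate 1, 2 or 3 (edgeR adjusted p from 0.052 to 0.194), with DESeq2 size factors and with no filter on low counts. It was lower with APX3330 than at saline D48 (-0.86 ± 0.18, edgeR adjusted p = 0.00481), kept with each library left out. It fell from saline D48 to saline D100 (-0.73 ± 0.18, edgeR adjusted p = 0.0158), lost without saline D48 replicate 2 or 3 or saline D100 replicate 3 (edgeR adjusted p from 0.0538 to 0.0654). Without the pancreatic pair these last values were -0.38 and -0.26, and saline D48 against Control was 0.50. Without the squamous 3 Tnfsf13b at saline D48 against Control was 0.81. None of these calls was kept in those fits. Tnfsf13, the gene of APRIL, a ligand of plasma cells, was not called with all libraries, and its group means ran from 5.12 ± 1.25 CPM in Control to 8.07 ± 1.79 CPM in saline D100 (SD, n = 3). Without saline D100 replicate 1 it was called higher at saline D100 than in Control (0.83, edgeR adjusted p = 0.0413). Its exons overlap those of Tnfsfm13 on the same strand over 983 bases and of Tnfsf13os on the other over 221, so its counts are uncertain.

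The receptors of BAFF and APRIL differ by B cell stage. Tnfrsf13c encodes the BAFF receptor of mature B cells and stood at 5.08, 3.29 and 4.33 CPM in Control, 11.1, 18.2 and 9.61 in saline D27, 12.2, 5.46 and 27.6 in saline D48, 5.72, 4.36 and 9.26 in saline D100 and 5.2, 4.07 and 3.42 with APX3330. Tnfrsf13b encodes TACI, on activated B cells and plasma cells, and stood at 5.47, 4.38 and 5.59 CPM in Control, 16.7, 19.8 and 9.55 in saline D27, 22.4, 10.2 and 25.9 in saline D48, 11.8, 11 and 14.7 in saline D100 and 12.3, 9.47 and 3.15 with APX3330. Tnfrsf17 encodes BCMA of plasma cells and stood at 0.901, 0.438 and 1.07 CPM in Control, 3.9, 3.79 and 2.42 in saline D27, 3.18, 1.8 and 3.02 in saline D48, 1.41, 2.44 and 3.16 in saline D100 and 1.55, 2.13 and 0.469 with APX3330. For all 3 genes every saline D27 and saline D48 library lay above the 3 Control libraries, and for Tnfrsf13c and Tnfrsf13b saline D48 replicate 3 was the highest of the 15.

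Tnfrsf13c rose at saline D27 (1.61 ± 0.46, edgeR adjusted p = 0.0229) and at saline D48 (1.83 ± 0.46, edgeR adjusted p = 0.00793) and was not called at saline D100 (0.60 ± 0.46, edgeR adjusted p = 0.386). The first was lost without Control replicate 1, 2 or 3 or saline D27 replicate 2 (edgeR adjusted p from 0.0501 to 0.115), and the second without saline D48 replicate 3 (edgeR adjusted p = 0.0691). Tnfrsf13c was lower with APX3330 than at saline D48 (-1.84 ± 0.46, edgeR adjusted p = 0.0121) and at saline D27 (-1.61 ± 0.46, edgeR adjusted p = 0.0395). The first of these was lost without saline D48 replicate 3 or APX3330 replicate 3 (edgeR adjusted p from 0.0515 to 0.0885), and the second without saline D27 replicate 1 or 2 or APX3330 replicate 1, 2 or 3 (edgeR adjusted p from 0.0518 to 0.164).

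Tnfrsf13b rose at saline D27 (1.57 ± 0.42, edgeR adjusted p = 0.016), saline D48 (1.92 ± 0.42, edgeR adjusted p = 0.00331) and saline D100 (1.28 ± 0.42, edgeR adjusted p = 0.0391). The call at saline D48 was kept with each library left out, that at saline D27 was lost without Control replicate 2 or saline D27 replicate 2 (edgeR adjusted p from 0.0557 to 0.0767), and that at saline D100 without Control replicate 1, 2 or 3 or saline D100 replicate 1, 2 or 3 (edgeR adjusted p from 0.0644 to 0.116). It was lower with APX3330 than at saline D48 (-1.23 ± 0.40, edgeR adjusted p = 0.0423), although 1 APX3330 library, at 12.3 CPM, lay within the saline D48 range, and this was lost without saline D48 replicate 1 or 3 or APX3330 replicate 2 or 3 (edgeR adjusted p from 0.087 to 0.158).

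Tnfrsf17 also rose at saline D27 (2.05 ± 0.50, edgeR adjusted p = 0.00979), saline D48 (1.72 ± 0.50, edgeR adjusted p = 0.0181) and saline D100 (1.52 ± 0.50, edgeR adjusted p = 0.0403). The first was kept with each library left out, the second was lost without Control replicate 2 or saline D48 replicate 1 or 3 (edgeR adjusted p from 0.0555 to 0.0707), and the third without Control replicate 1, 2 or 3 or saline D100 replicate 2 or 3 (edgeR adjusted p from 0.0578 to 0.145). The APX3330 group was not called for Tnfrsf17 against any other group.

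Beside these genes, the 7 B cell markers summed to 65.7 to 74 CPM in Control, 151 to 302 in saline D27, 75.6 to 573 in saline D48, 79.5 to 119 in saline D100 and 67.7 to 97.1 with APX3330. In saline D48 the sums were 190.0, 75.6 and 573 in replicates 1, 2 and 3, the same order as Ltb, Tnfrsf13c and Tnfrsf13b. The 5 plasma cell markers summed to 1760.5 to 2245 CPM in Control, 4688 to 7990.0 in saline D27, 7293 to 11352 in saline D48, 5960.3 to 8326 in saline D100 and 3358 to 5326 with APX3330. Of the B cell markers 6 of 7 rose at saline D48 and 0 of 7 at saline D100, and of the plasma cell markers 4 of 5 rose at each saline day. Their part in the values of the receptors was not tested.

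**Figure D3:**
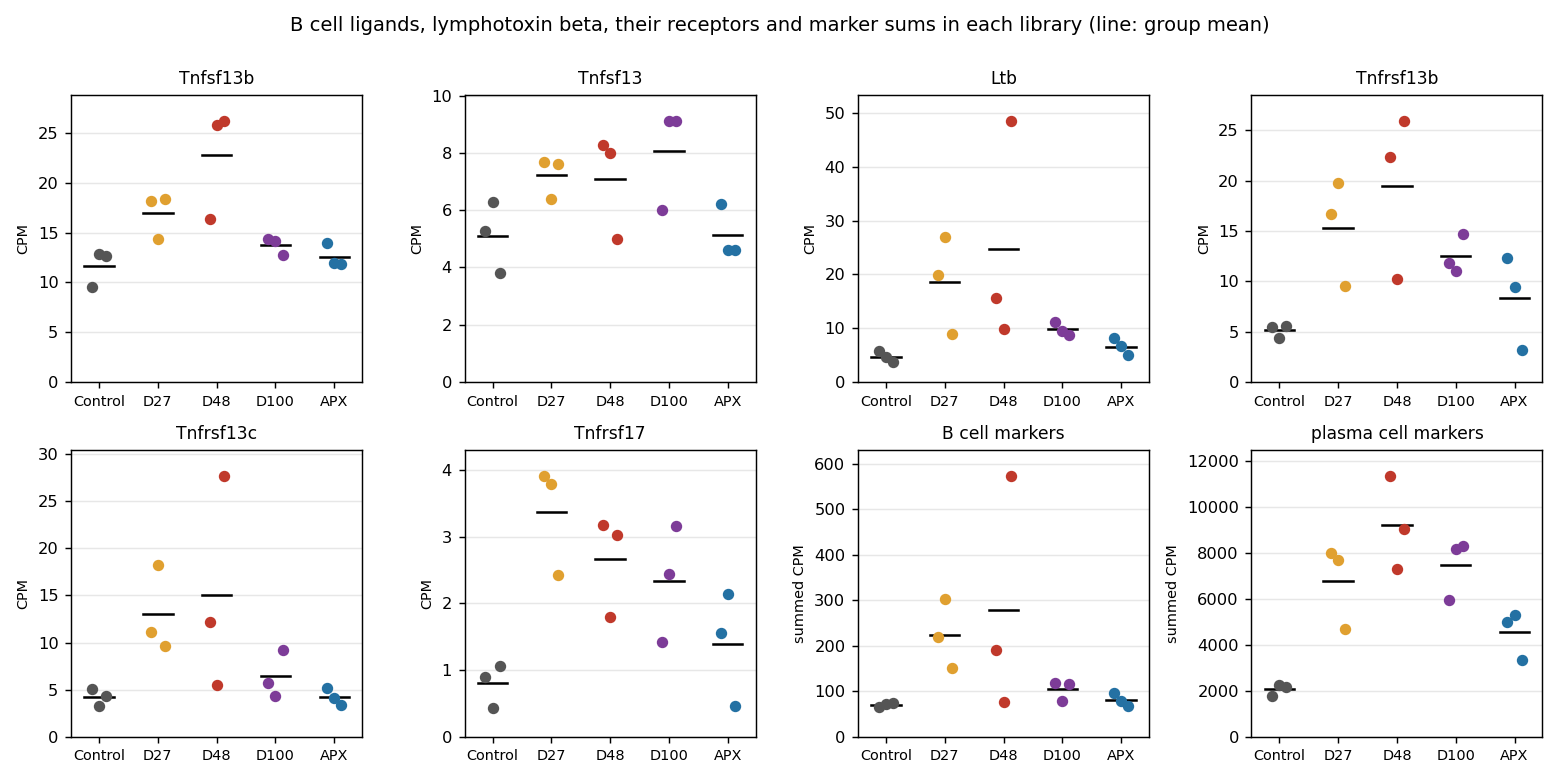
Level in CPM (y axes, each from 0) of Tnfsf13b, Tnfsf13, Ltb, Tnfrsf13b, Tnfrsf13c and Tnfrsf17, and summed CPM of 7 B cell and 5 plasma cell markers, in each of the 15 libraries (points) with lines at the group means. Saline D48 replicate 3 stands highest for Ltb (48.5 CPM), Tnfrsf13c (27.6 CPM) and the B cell markers (573 CPM), and plasma cell markers are above Control in every other group.

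Among the costimulatory members, which adjust T cell responses, the receptor gene Tnfrsf8 had the largest rise among the 33 tested members against Control at each saline day and with APX3330. It encodes CD30, made by activated lymphocytes. Tnfrsf8 stood at 1.61, 2.34 and 2.46 CPM in Control, 18.1, 21.4 and 14 in saline D27, 10.5, 15.5 and 17.4 in saline D48, 20.3, 12.6 and 11.4 in saline D100 and 9.8, 11.6 and 11 with APX3330. No Control library overlapped any other. The log2 fold changes were 3.06 ± 0.28, edgeR adjusted p = 1.97e-05 at saline D27, 2.76 ± 0.27, edgeR adjusted p = 2.06e-05 at saline D48, 2.79 ± 0.28, edgeR adjusted p = 1.02e-05 at saline D100 and 2.34 ± 0.27, edgeR adjusted p = 1.13e-04 with APX3330. All 4 calls were kept with each library left out and without the squamous 3, where the values were 2.91 (edgeR adjusted p = 0.00574), 2.61 (edgeR adjusted p = 0.00495), 2.35 (edgeR adjusted p = 0.00504) and 2.20 (edgeR adjusted p = 0.0134) in the same order. The difference between APX3330 and saline D27 was not called by edgeR (-0.72 ± 0.24, edgeR adjusted p = 0.0716) and was called by DESeq2 (adjusted p = 0.0294) and with no filter on low counts (edgeR adjusted p = 0.0254).

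Its ligand gene Tnfsf8, encoding CD30L, stood at 0.643, 0.584 and 0.533 CPM in Control, 2.06, 1.58 and 1.49 in saline D27, 1.92, 1.27 and 4.88 in saline D48, 2.05, 0.961 and 2.86 in saline D100 and 1.01, 0.533 and 1.0 with APX3330. Saline D48 replicate 3 was again the highest. Tnfsf8 rose at saline D48 (2.19 ± 0.53, edgeR adjusted p = 0.00644), lost without saline D48 replicate 3 (edgeR adjusted p = 0.0581), and at saline D100 (1.72 ± 0.53, edgeR adjusted p = 0.0311), lost without Control replicate 1, 2 or 3 or saline D100 replicate 1 or 3 (edgeR adjusted p from 0.0645 to 0.134). Tnfsf8 was lower with APX3330 than at saline D48 (-1.66 ± 0.51, edgeR adjusted p = 0.0321), lost without saline D48 replicate 3 or APX3330 replicate 1, 2 or 3 (edgeR adjusted p from 0.0543 to 0.25). At saline D27 Tnfsf8 missed the threshold against Control in the filtered edgeR fit (1.53 ± 0.53, edgeR adjusted p = 0.0548) and was called with no filter on low counts (edgeR adjusted p = 0.0402) and by DESeq2 (adjusted p = 0.0407). With APX3330 it was not called (0.53 ± 0.56, edgeR adjusted p = 0.567).

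Tnfsf9 and Tnfrsf9 encode 4-1BBL and its T cell receptor 4-1BB. Tnfsf9 stood at 0.322, 0.292 and 0.666 CPM in Control, 0.725, 1.03 and 1.18 in saline D27, 2.18, 1.6 and 2.09 in saline D48, 1.13, 1.03 and 1.28 in saline D100 and 0.405, 1.07 and 0.335 with APX3330. Every saline D48 library lay above the 12 others. Tnfsf9 rose at saline D48 (2.17 ± 0.48, edgeR adjusted p = 0.00386), kept with each library left out, and was lower with APX3330 than at saline D48 (-1.69 ± 0.46, edgeR adjusted p = 0.0196), lost without saline D48 replicate 1 or 3 or APX3330 replicate 1 or 3 (edgeR adjusted p from 0.0619 to 0.0806). Its exons overlap those of Gm11110 on the other strand over 192 bases. Tnfrsf9 stood at 0.129, 0.219 and 1.07 CPM in Control, 1.73, 1.31 and 0.868 in saline D27, 1.32, 2.53 and 3.25 in saline D48, 0.707, 0.961 and 0.452 in saline D100 and 0.946, 0.467 and 0.268 with APX3330. The receptor rose at saline D48 as well (2.31 ± 0.65, edgeR adjusted p = 0.0155), lost without Control replicate 1 or 2 or saline D48 replicate 3 (edgeR adjusted p from 0.061 to 0.069). It was lower with APX3330 than at saline D48 (-2.07 ± 0.64, edgeR adjusted p = 0.0332), lost without saline D48 replicate 2 or 3 or APX3330 replicate 2 or 3 (edgeR adjusted p from 0.0748 to 0.125).

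Tnfrsf4 and Tnfrsf18 encode OX40 and GITR, receptors of activated and regulatory T cells, and lie 9551 bases apart on chromosome 4. Tnfrsf4 stood at 1.61, 0.876 and 1.8 CPM in Control, 2.51, 3.24 and 1.49 in saline D27, 2.58, 3.4 and 4.82 in saline D48, 2.83, 1.15 and 1.88 in saline D100 and 1.55, 0.733 and 0.938 with APX3330. The saline D48 libraries lay above Control and APX3330. Tnfrsf4 rose at saline D48 (1.33 ± 0.43, edgeR adjusted p = 0.0307), lost without Control replicate 1 or 2 or saline D48 replicate 2 or 3 (edgeR adjusted p from 0.0561 to 0.134). It was lower with APX3330 than at saline D48 (-1.74 ± 0.44, edgeR adjusted p = 0.0126), lost without saline D48 replicate 3 or APX3330 replicate 2 (edgeR adjusted p from 0.060 to 0.0602). Regulatory T cell markers (Foxp3, Ctla4 and Ikzf2) summed to 13.1 to 15.8 CPM in Control, 14.3 to 18.7 at saline D27 and 20.4 to 29.5 at saline D48. At saline D100 the sum was 8.35 to 15.9 CPM, and with APX3330 10.0 to 10.2. The 3 genes did not move alike: with APX3330 2 of them lay above Control, and their median log2 fold change was 0.51. The part of these markers was not tested. Tnfrsf18 was not called, with group means from 2.07 ± 0.154 CPM in saline D27 to 3.01 ± 0.469 CPM in saline D48 (SD, n = 3), and its exons overlap Gm16008 on the other strand over 414 bases.

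The ligand genes of these receptors, Tnfsf4 (OX40L) and Tnfsf18 (GITRL), had too few counts to test. Tnfsf4 had 0, 2 and 1 reads in Control, 0, 1 and 7 in saline D27, 2, 5 and 6 in saline D48, 0, 0 and 0 in saline D100 and 0, 1 and 1 with APX3330. Tnfsf18 had 0, 0 and 0 reads in Control, 2, 5 and 1 in saline D27, 3, 5 and 7 in saline D48, 3, 2 and 3 in saline D100 and 1, 0 and 2 with APX3330. With no filter on low counts Tnfsf18 was called higher at saline D48 than in Control (edgeR adjusted p = 0.0348), and its fitted fold against a group at 0 reads is not given. A group at 0 reads allows up to 3.

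Tnfrsf25 encodes DR3, the death domain receptor of T cells for TL1A. It stood at 3.92, 4.24 and 4.06 CPM in Control, 6.86, 9.43 and 6.14 in saline D27, 7.21, 7.13 and 8.07 in saline D48, 5.86, 10.7 and 9.86 in saline D100 and 7.5, 7.07 and 7.44 with APX3330. No Control library overlapped any other group. Tnfrsf25 rose at saline D27 (0.87 ± 0.23, edgeR adjusted p = 0.0155), saline D48 (0.87 ± 0.23, edgeR adjusted p = 0.0107), saline D100 (1.11 ± 0.23, edgeR adjusted p = 0.00298) and with APX3330 (0.85 ± 0.23, edgeR adjusted p = 0.0222). The calls at saline D48 and saline D100 were kept with each library left out. That at saline D27 was lost without Control replicate 1 or saline D27 replicate 2 (edgeR adjusted p from 0.0526 to 0.0912), and that with APX3330 without Control replicate 1 or 3 or APX3330 replicate 3 (edgeR adjusted p from 0.0547 to 0.0721). The value at saline D48 was 0.80 without the squamous 3 and 0.83 without the pancreatic pair, and the call was lost in both fits. APX3330 was not called against any saline group for this gene, with log2 fold changes of -0.03 ± 0.22, -0.03 ± 0.22 and -0.26 ± 0.22 in order of day (edgeR adjusted p = 0.958, 0.949 and 0.669). Tnfsf15, the gene of TL1A, was not called, with group means from 3.67 ± 0.67 CPM in APX3330 to 5.4 ± 1.05 CPM in saline D48 (SD, n = 3).

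Tnfrsf12a encodes Fn14, the TWEAK receptor made by epithelial and stromal cells during repair, and it was highest at saline D27. It stood at 17.1, 12.3 and 14.2 CPM in Control, 24.4, 31.7 and 27.7 in saline D27, 15.5, 17.1 and 17.4 in saline D48, 15.8, 18.8 and 10.7 in saline D100 and 14.5, 13.9 and 12 with APX3330. The saline D27 libraries lay above all 12 others. Tnfrsf12a rose at saline D27 (0.94 ± 0.18, edgeR adjusted p = 0.00298) and was lower with APX3330 than at saline D27 (-1.05 ± 0.18, edgeR adjusted p = 0.00659), both kept with each library left out. It was lower at saline D100 than at saline D27 (-0.89 ± 0.18, edgeR adjusted p = 0.0235), lost without saline D27 replicate 1 or 2 or saline D100 replicate 1 or 3 (edgeR adjusted p from 0.0554 to 0.102). At saline D48 it was not called against Control (0.20 ± 0.18, edgeR adjusted p = 0.464). Without the squamous 3 the rise of Tnfrsf12a at saline D27 was 1.16, and that call was lost.

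Tnfsf12, the gene of TWEAK, stood at 2.38, 2.41 and 1.07 CPM in Control, 4.4, 2.75 and 3.54 in saline D27, 2.98, 2.87 and 4.18 in saline D48, 2.47, 1.86 and 1.88 in saline D100 and 1.49, 1.6 and 1.47 with APX3330. The APX3330 libraries lay below all of those of saline D27 and saline D48. Tnfsf12 was lower with APX3330 than at saline D27 (-1.23 ± 0.33, edgeR adjusted p = 0.0319) and at saline D48 (-1.13 ± 0.33, edgeR adjusted p = 0.0255). The first was lost without saline D27 replicate 1, 2 or 3 or APX3330 replicate 1, 2 or 3 (edgeR adjusted p from 0.0504 to 0.134), and the second without saline D48 replicate 3 or APX3330 replicate 1, 2 or 3 (edgeR adjusted p from 0.0589 to 0.111). Both were also lost with no filter on low counts (edgeR adjusted p = 0.0520 and 0.0585). Its exons overlap those of Tnfsfm13, a read-through of Tnfsf12 and Tnfsf13, on the same strand over 731 bases, so its counts are uncertain.

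Tnfrsf19 (TROY), a receptor gene known as a Wnt target in intestinal stem cells, was the 1 member lower than Control in all 4 comparisons. It stood at 13.6, 12.7 and 10.5 CPM in Control, 4.74, 3.72 and 6.76 in saline D27, 5.16, 9.33 and 5.17 in saline D48, 8.34, 4.74 and 4.36 in saline D100 and 4.93, 4.07 and 3.82 with APX3330. No Control library overlapped any other. The log2 fold changes were -1.27 ± 0.30, edgeR adjusted p = 0.00878 at saline D27, -0.91 ± 0.30, edgeR adjusted p = 0.0338 at saline D48, -1.08 ± 0.30, edgeR adjusted p = 0.018 at saline D100 and -1.52 ± 0.31, edgeR adjusted p = 0.00387 with APX3330. The APX3330 call was kept with each library left out. The others were lost in turn without saline D27 replicate 2 (edgeR adjusted p = 0.0534), without Control replicate 1 or 2 or saline D48 replicate 1 or 3 (edgeR adjusted p from 0.0767 to 0.127) and without Control replicate 1 or saline D100 replicate 2 or 3 (edgeR adjusted p from 0.0623 to 0.0837). Without the squamous 3 the values were -1.34, -0.98 and -1.49 by saline day and -1.58 with APX3330, and none of these calls was kept. Smooth muscle markers (4 genes) also differed between the groups, at 8078 to 8406 CPM in Control, 5992 to 7847, 3964 to 4827 and 4166 to 5488 in the saline groups by day and 3584 to 4653 with APX3330, and their part was not tested.

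Tnfrsf22, Tnfrsf23 and Tnfrsf26 are closely related neighbours on chromosome 7, of which the first 2 encode decoy receptors for TRAIL. Reads may have been split between them, and Tnfrsf23 and Tnfrsf26 also overlap E230032D23Rik on the other strand over 164 and 107 bases, so their values are uncertain. Tnfrsf23 stood at 2.12, 1.61 and 0.732 CPM in Control, 1.84, 2.55 and 2.36 in saline D27, 2.84, 4.86 and 5.11 in saline D48, 3.74, 5.0 and 4.14 in saline D100 and 1.55, 2.33 and 3.28 with APX3330. It rose at saline D48 (1.52 ± 0.38, edgeR adjusted p = 0.00782) and at saline D100 (1.52 ± 0.38, edgeR adjusted p = 0.00962), both kept with each library left out. Without the pancreatic pair the value at saline D48 was 0.93. Without the squamous 3 the values were 1.39 and 1.49, and none of these calls was kept in those fits. Saline D48 and saline D100 libraries lay above all those of Control and saline D27.

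Tnfrsf22 stood at 2.51, 1.83 and 2.26 CPM in Control, 3.07, 3.86 and 3.29 in saline D27, 3.84, 4.0 and 4.3 in saline D48, 3.82, 3.27 and 1.35 in saline D100 and 2.97, 2.53 and 2.68 with APX3330. It rose at saline D48 (0.87 ± 0.31, edgeR adjusted p = 0.0491), a call lost without Control replicate 1, 2 or 3 or saline D48 replicate 1, 2 or 3 (edgeR adjusted p from 0.071 to 0.141) and with no filter on low counts. Tnfrsf26 stood at 0.322, 0.876 and 1.33 CPM in Control, 1.62, 1.65 and 0.992 in saline D27, 1.79, 1.07 and 3.77 in saline D48, 0.848, 1.03 and 1.2 in saline D100 and 0.946, 0.733 and 0.603 with APX3330. Tnfrsf26 was lower with APX3330 than at saline D48 (-1.53 ± 0.52, edgeR adjusted p = 0.0495), a call lost without saline D48 replicate 1 or 3 or APX3330 replicate 1, 2 or 3 (edgeR adjusted p from 0.0682 to 0.305). Both calls thus lay close to the threshold.

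Levels can be compared between genes only per length, here as RPKM, CPM per 1000 exon bases. Averaged over the 15 libraries, the receptor genes Ltbr (50.0 RPKM), Tnfrsf1a (36.2), Tnfrsf21 (24.5), Tnfrsf11a (22.8), Tnfrsf1b (19.1), Tnfrsf14 (17.3) and Tnfrsf12a (9.08) came first. The highest ligands by this average were Ltb (8.49 RPKM), Tnfsf10 (5.07) and Tnfsf13 (3.99). Their order differed by group: in Control Tnfsf10 had the highest mean (3.44 RPKM, Tnfsf13 3.13 and Ltb 3.08), as it had with APX3330 (5.81, against 4.34 for Ltb), and Ltb came first in the saline groups. Among the lower ligands Tnf averaged 1.94 and Lta 1.14. In the following pairs the receptor stood above its ligand: Tnfrsf11a averaged 22.8 RPKM and its ligand Tnfsf11 0.634, and Tnfrsf14 17.3 and its ligand Tnfsf14 0.557. The pair of CD30 was alike in order, with Tnfrsf8 at 0.618 RPKM in Control and 5.16 in saline D27 and Tnfsf8 at 0.154 and 0.45. The lowest members were the untested Tnfsf18 (0.0717 RPKM) and Tnfsf4 (0.0602).

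**Figure D4:**
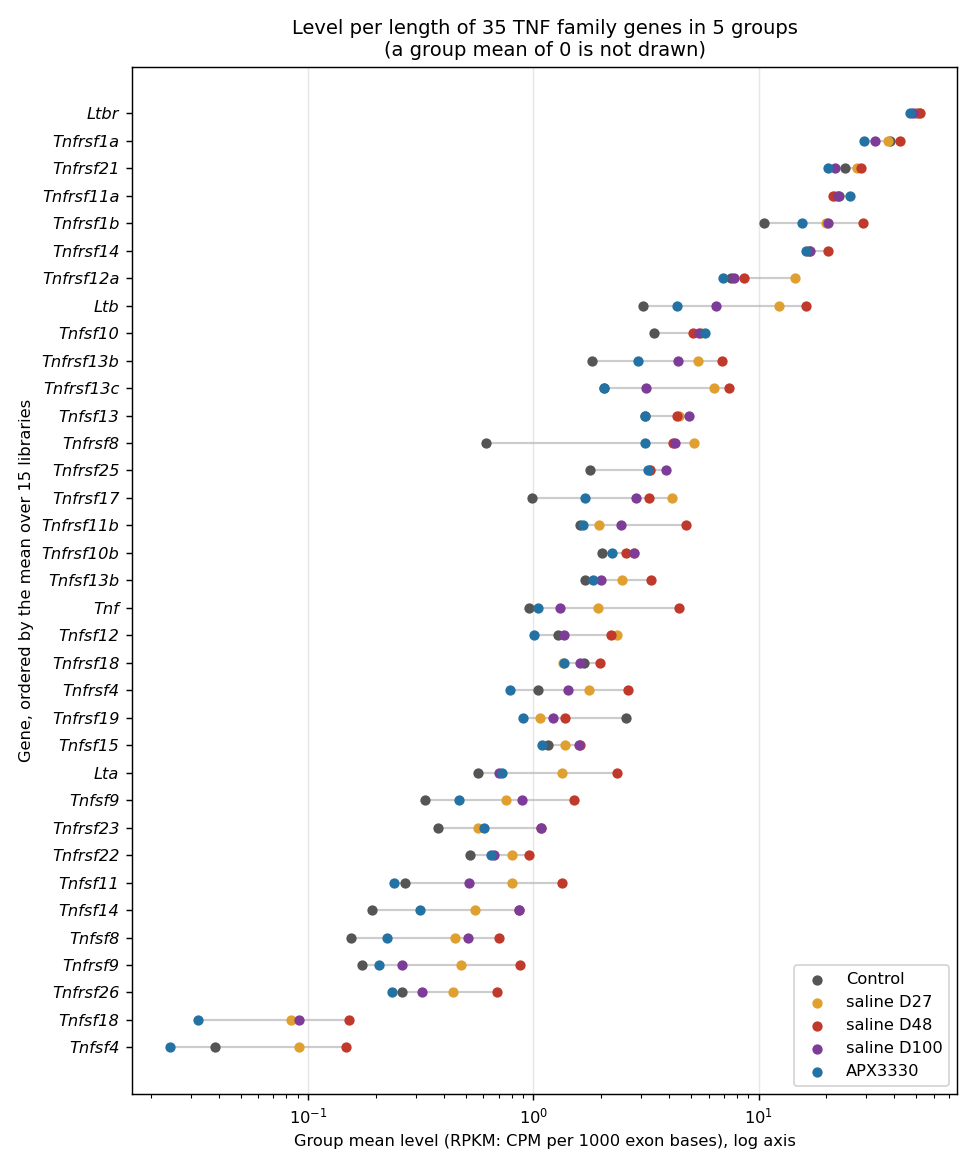
Group mean level per length (x axis, RPKM, log scale) of the 35 members (y axis, ordered by their mean over 15 libraries), with 1 coloured point for each of the 5 groups and a grey line over their range. Ltbr (50.0 RPKM) and Tnfrsf1a (36.2 RPKM) head the order with narrow ranges, and points of groups with equal means hide one another.

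Family members kept under other symbols were read as a list of 11 genes, of which Cd70 and Edar had too few counts to test. Of the 9 tested, 4 rose at saline D48 against Control (Cd27, Cd40, Fasl and Relt), 1 rose at saline D27 (Cd27), and at saline D100 Fasl rose and Eda fell. These are 44.4%, 11.1% and 22.2% of the 9, against 27.3%, 19.5% and 21.9% of all genes, so the last 2 are below or at the background. With APX3330 0 were called against Control by edgeR (15.3% of all genes), with 2 at an unadjusted p below 0.05. Against saline D27 2 of the 9 were lower with APX3330 (22.2%, and 9.08% of all genes). Against saline D48 1 was lower (11.1%, below the 19.7% of all genes). The F test over the 5 groups called 3 of the 9 (33.3%, below the 37.3% of all genes). Cd27, a costimulator of T and B cells, stood at 0.257, 0.657 and 0.599 CPM in Control, 2.68, 3.31 and 1.8 in saline D27, 1.98, 1.0 and 5.69 in saline D48, 2.05, 1.47 and 0.677 in saline D100 and 1.08, 1.07 and 1.21 with APX3330. It rose at saline D48 (2.52 ± 0.60, edgeR adjusted p = 0.0062), lost without saline D48 replicate 3 (edgeR adjusted p = 0.058), and at saline D27 (2.35 ± 0.60, edgeR adjusted p = 0.0137), lost without Control replicate 1 or saline D27 replicate 2 (edgeR adjusted p from 0.0569 to 0.0652). Cd40, a receptor of B cells and antigen-presenting cells, rose at saline D48 (1.62 ± 0.46, edgeR adjusted p = 0.0153), lost without Control replicate 1 or 2 or saline D48 replicate 3 (edgeR adjusted p from 0.0559 to 0.152). Fas, the best known death receptor gene, was lower with APX3330 than at saline D27 (-0.74 ± 0.18, edgeR adjusted p = 0.0216) and at saline D48 (-0.71 ± 0.18, edgeR adjusted p = 0.0131). The first was lost without saline D27 replicate 1 or 2 or APX3330 replicate 2 or 3 (edgeR adjusted p from 0.0503 to 0.0823), and the second without saline D48 replicate 3 or APX3330 replicate 2 (edgeR adjusted p from 0.0505 to 0.0531). Ngfr, a neurotrophin receptor gene of nerves and stroma, was lower with APX3330 than at saline D27 (-0.75 ± 0.20, edgeR adjusted p = 0.0302), lost without saline D27 replicate 2 or 3 or APX3330 replicate 2 or 3 (edgeR adjusted p from 0.0636 to 0.117).

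Of 12 genes of the NF-kB pathway, through which most of the receptors signal, 7 rose and 1 fell at saline D48, 4 rose at saline D27 (Map3k14, Ikbkb, Rel and Nfkbie), 3 rose and 1 fell at saline D100 (Ikbkb, Rel and Nfkbie, and Relb), and 1 fell with APX3330 (Relb), all against Control. The shares called were 66.7%, 33.3%, 33.3% and 8.33%, against 27.3%, 19.5%, 21.9% and 15.3% of all genes, the last below the background. Their median log2 fold change at saline D48 was 0.33. With APX3330 8 were lower and 1 higher (Chuk) than at saline D48, 75.0% against 19.7%. Nfkb2, the non-canonical subunit, stood at 52.1, 58.8 and 53.4 CPM in Control, 69.4, 75.3 and 54.1 in saline D27, 94.3, 71.7 and 101 in saline D48, 50.0, 45.2 and 52.1 in saline D100 and 49.5, 51.5 and 57.6 with APX3330. It rose at saline D48 (0.70 ± 0.13, edgeR adjusted p = 0.0014) and was lower with APX3330 than there (-0.75 ± 0.13, edgeR adjusted p = 0.0016), both kept with each library left out. Without the squamous 3 the rise of Nfkb2 was 0.58, and that call was lost. Nfkbie, an inhibitor gene that NF-kB itself induces, rose by 1.66 ± 0.23, edgeR adjusted p = 1.63e-04 at saline D48 and was lower with APX3330 than there (-1.41 ± 0.23, edgeR adjusted p = 9.27e-04). Relb, the partner of Nfkb2, was lower than Control at saline D100 (-0.60 ± 0.09, edgeR adjusted p = 2.75e-04) and with APX3330 (-0.43 ± 0.09, edgeR adjusted p = 0.00427). Chuk, the kinase gene of the non-canonical branch, went the other way, lower at saline D48 than in Control (-0.45 ± 0.08, edgeR adjusted p = 5.36e-04) and higher with APX3330 than at saline D48 (0.59 ± 0.08, edgeR adjusted p = 2.17e-04). The calls of Nfkbie, Relb and Chuk given with values in this paragraph were kept with each library left out. Without the squamous 3 the Relb value with APX3330 against Control was -0.48, and that call was lost.

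Of 17 adaptors, kinases and proteases of TNF receptor signalling, 6 rose and 2 fell (Map3k7 and Tab2) at saline D48 against Control, and 4 rose (Ripk3, Traf1, Traf2 and Adam17) and 1 fell (Ripk1) at saline D27. At saline D100 3 rose (Adam17, Cflar and Mlkl) and 2 fell (Tradd and Birc3), and with APX3330 Adam17 rose and Tradd and Birc3 fell. Against saline D48, 4 were lower (Ripk3, Traf1, Traf2 and Birc3) and 2 higher (Map3k7 and Tab2) with APX3330. The shares called against Control were 47.1% at saline D48, 29.4% at saline D27, 29.4% at saline D100 and 17.6% with APX3330, against 27.3%, 19.5%, 21.9% and 15.3% of all genes, so that with APX3330 was near the background. Against saline D48 the share was 35.3%, and 19.7% over all genes. Ripk3, the kinase of necroptosis, stood at 17.8, 24.5 and 22.8 CPM in Control, 43.2, 59.4 and 40.3 in saline D27, 33.4, 47.6 and 44.5 in saline D48, 34.3, 29.9 and 29.6 in saline D100 and 27.5, 22.7 and 32.9 with APX3330. It rose at saline D27 (1.13 ± 0.18, edgeR adjusted p = 9.00e-04) and saline D48 (0.95 ± 0.18, edgeR adjusted p = 0.0015), both kept with each library left out. Without the squamous 3 these values were 0.94 and 0.75, and without the pancreatic pair Ripk3 at saline D48 was 0.63. None of these was called in those fits. Traf1, an adaptor gene induced by NF-kB, rose at saline D48 (1.54 ± 0.30, edgeR adjusted p = 0.00146), kept in every such fit, and was lower with APX3330 than there (-1.17 ± 0.29, edgeR adjusted p = 0.0118), lost without saline D48 replicate 3 (edgeR adjusted p = 0.0652). Adam17, the sheddase of TNF and its receptors, was higher than Control at saline D48 (0.52 ± 0.11, edgeR adjusted p = 0.00206) and saline D100 (0.51 ± 0.11, edgeR adjusted p = 0.00293), both kept. Adam17 was higher with APX3330 too (0.43 ± 0.11, edgeR adjusted p = 0.0132), lost without Control replicate 1 or 3 (edgeR adjusted p from 0.0528 to 0.0603). Without the squamous 3 the Adam17 values against Control were 0.36 at saline D48, 0.37 at saline D100 and 0.28 with APX3330. Traf1 at saline D48 was then 1.34, and none of these calls was kept. Birc3, a ubiquitin ligase of the TNF receptor complex, was lower than Control at saline D100 (-0.50 ± 0.09, edgeR adjusted p = 0.00141), kept in every such fit.

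Of 7 feedback inhibitors and TNF-induced genes, 5 rose at saline D48 against Control (Cyld, Tnfaip2, Tnfaip3, Tnfaip8 and Zc3h12a). At saline D100 Tnfaip8 and Zc3h12a rose, and at saline D27 and with APX3330 Tnfaip8 rose, while Tnip1 fell in each of the 4 comparisons. Against saline D48, 2 were lower with APX3330 (Tnfaip2 and Zc3h12a). The shares called were 85.7% at saline D48, 42.9% at saline D100 and 28.6% at saline D27 and with APX3330, against 27.3%, 21.9%, 19.5% and 15.3% of all genes, and 28.6% against 19.7% for APX3330 against saline D48. Tnfaip2, a TNF-induced gene, stood at 15.8, 16 and 20.4 CPM in Control, 23.8, 20.5 and 22.5 in saline D27, 49.1, 40.8 and 42.2 in saline D48, 29, 19.2 and 17.2 in saline D100 and 26.3, 16.8 and 17 with APX3330. Its saline D48 libraries lay above all 12 others, with a rise of 1.34 ± 0.20, edgeR adjusted p = 2.81e-04 against Control and a lower level with APX3330 (-1.13 ± 0.20, edgeR adjusted p = 0.00152), both kept with each library left out. Zc3h12a, which encodes a ribonuclease that degrades inflammatory mRNAs, rose at saline D48 (0.90 ± 0.20, edgeR adjusted p = 0.00385), kept in every such fit. Tnip1, which binds the inhibitor A20, fell furthest at saline D100 (-0.87 ± 0.12, edgeR adjusted p = 1.29e-04), kept in every such fit, and its call at saline D48 was lost without Control replicate 2 or saline D48 replicate 3 (edgeR adjusted p from 0.0646 to 0.068). Tnfaip8 was higher than Control in all 4, by 0.57, 0.68 and 0.69 by saline day and 0.62 with APX3330, all kept with each library left out. Without the squamous 3 the Tnfaip8 values at saline D27 and with APX3330 were 0.61 and 0.67, and these calls were lost. Zc3h12a at saline D48 was then 0.79, and its call was lost too.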

How the data were processed

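Colon RNA of 15 libraries in 5 labelled groups was analysed from 1 deposited table of whole-number counts per gene, which the authors had left without normalisation. The labels' protocols name an RNeasy kit for the RNA and a SMARTER mRNA kit for the libraries. Builds GRCm38 and mm10 are named in the submitters' processing notes. The aligner, counter and strand setting were not given in the sources used here.

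Of 56859 genes, 18038 passed edgeR's filterByExpr. All libraries were fitted together in edgeR 4.0.16 (R 4.3.3; TMM, quasi-likelihood test), for 10 pairwise comparisons and an F test, with Benjamini-Hochberg adjustment over all tested genes and calls at an adjusted p below 0.05. Dividing each log2 fold change by the root of its F statistic gave the SE. CPM used TMM factors, and RPKM used union exon lengths of GENCODE M21 (GRCm38). Alternatives were DESeq2 size factors, no filter, the DESeq2 1.42.0 test, a replicate block, each library left out, and fits without the pancreatic or squamous libraries. Scripts were tested on simulated counts.

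The members, marker and pathway lists and tests were chosen with earlier results of these data known. The 25 members called in any test of the filtered edgeR fit of all libraries are given with their level in each library. The other members are given by group means or counts, and per pathway list the 4 genes with the smallest F test p. Other list genes were named after their values were seen. Member positions were matched by symbol for 35 of 35.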

Additional observations from a re-analysis of the deposited data

How the results depend on the processing

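No call reversed under any alternative. Of 73 calls of single members, DESeq2's test kept 73, its size factors in edgeR 72, an edgeR fit with no filter on low counts 69 and the replicate block 64, and 277 of 438 values were still called with 1 library left out. Without the libraries holding pancreatic transcripts 9 of 41 calls involving saline D48 remained, and without those holding squamous transcripts 10 of 50 involving Control or saline D100. Most calls of the pathway list genes were lost in each of these fits as well. In both fits the lone remaining library is assumed to vary like the other groups.

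With no filter on low counts the members called were 3 for saline D48 against saline D27, 3 for saline D100 against saline D27 and 10 for saline D100 against saline D48, where the filtered fit gave 0, 1 and 4. Calls over all genes rose too, to 911, 1186 and 2855 from 244, 556 and 2453. The DESeq2 test gave 3 for the first and 10 for the last, with 706 and 3100 calls over all genes. Without the pancreatic pair the counts were 5 for saline D48 against Control (from 20), 4 for APX3330 against saline D48 (from 17), 0 for saline D100 against saline D48 (from 4) and 13 over the 5 groups (from 22). Without the squamous 3 they were 1 for saline D27 (from 11), 4 for saline D48, 2 for saline D100 (from 9) and 1 for APX3330 (from 5), all against Control, 0 for saline D100 against saline D27 (from 1) and 11 over the 5 groups. Fewer libraries entered these fits, and calls over all genes fell in them too.

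With each library left out in turn, the count against Control ran from 4 to 9 at saline D27, 12 to 19 at saline D48, 4 to 8 at saline D100 and 3 to 5 with APX3330. That of APX3330 ran from 1 to 6 against saline D27, 7 to 15 against saline D48 and stayed 0 against saline D100. Saline D48 against saline D27 stayed 0, saline D100 against saline D27 ran from 0 to 2 and against saline D48 from 1 to 4, and the F test from 19 to 23. Calls over all genes changed in these fits too.

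Replicate numbers do not pair the samples: over 30 same-numbered pairs of libraries the correlation of deviations from group means ran from -0.14 to 0.25, with 2 above 0.1, and 3 of 15 libraries lay closest to their own number. With the replicate number as a block the counts were 11 at saline D27, 19 at saline D48, 7 at saline D100 and 5 with APX3330 against Control, and 5, 14 and 0 for APX3330 against saline D27, saline D48 and saline D100. They were 0 for saline D48 and 1 for saline D100 against saline D27, 4 for saline D100 against saline D48 and 21 over the 5 groups.

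Depth limits members with few reads: Tnfsf4 and Tnfsf18, at no more than 7 reads in a library, were not tested.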
